A study of Mus musculus with 6 samples.

Results

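Prostaglandin and epoxide lipid enzymes were followed in kidney epithelium of mice labelled knockout or wild-type for Fh1, the gene of fumarate hydratase. The group was chosen by name as 10 genes, with earlier results of these data known. Of these, 9 (all but Ptgs1) had at least 1 probe set annotated to that gene alone, out of 18193 genes measured in this way. The 9 genes had 15 probe sets among the 45101 of the array, and for each gene the brightest of its probe sets, by the mean of the 6 arrays, was used. Ptgs1, the constitutive cyclooxygenase, was not analysed here. The knockout group was 3 samples of cystic epithelium macro-dissected from kidneys of Fh1 knockout mice. The wild-type group was 3 samples of kidney epithelium from littermate controls free of disease, described as sex-matched. Genotype and cystic disease thus go together in these groups and cannot be told apart. Neither the Cre driver or allele, nor age or strain, nor whether each sample was 1 animal, is given in the sources used here, so p-values measure only the spread between these samples.

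Arachidonic acid is cut from membrane phospholipids by cytosolic phospholipase A2, and several kinds of enzyme then compete for it. Cyclooxygenases turn it into prostaglandin H2, from which terminal synthases make prostaglandin E2, D2, prostacyclin and thromboxane. Lipoxygenases lead to leukotrienes, and cytochrome P450 enzymes make epoxides and 20-HETE, which act on vessels and tubular salt transport. In kidney, cyclooxygenase-2 is known from the macula densa and medullary interstitial cells, prostaglandin E2 opposes salt and water reabsorption in the distal nephron, and soluble epoxide hydrolase ends the action of the epoxides.

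Of the 9 genes measured, 6 were higher in the knockout, none was lower and 3 did not pass the test. Over all genes 21.6% were called higher, 27.7% lower and 49.2% in either direction by limma at an adjusted p under 0.05. The members were chosen with earlier results of these data known, so their counts beside those shares are a description and no test. Cyclooxygenase-2 (Ptgs2) rose 9.42-fold by its brighter probe set, over wild-type values below those arrays' lower quartiles, and 2.14-fold by the other. Of the rest, cytosolic phospholipase A2 (Pla2g4a) rose 4.35-fold, prostaglandin D2 synthase (Ptgds) 3.49-fold and the prostaglandin E2 receptor EP4 (Ptger4) 3.27-fold. The leukotriene pair Alox5ap and Alox5 rose by 1.80-fold and 1.33-fold. The groups did not overlap for these 6 of the 9 genes, a share near the 62.9% of all genes in either direction. Over all genes, 4684 of 18193 lay higher in the knockout without overlap. In bulk tissue a change in the share of a cell type and a change in RNA per cell cannot be told apart. The median log2 fold change was 0.85 over the 9 members and -0.11 over all genes.

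The library labelled wild-type 2 differed from the other 5 in sex-linked transcripts, which were chosen after their values were seen. Xist, transcribed from the inactive X chromosome, read 11.96 there and 5.61 to 7.97 on the other arrays (log2 scale). The Y-linked genes Eif2s3y and Kdm5d read 6.20 and 4.38 in wild-type 2, against 8.70 to 9.59 and 7.25 to 8.05 elsewhere. The Y-linked gene Uty was likewise lowest in wild-type 2. These values go against sex-matched groups, so the members' fold changes are given with and without this library. Without it the same 6 members were called higher and 1, Ephx2, was called lower, when 47.7% of all genes were called. Array medians ran from 6.20 to 6.25, and correlations across genes were 0.988 to 0.992 among wild-type, 0.995 to 0.997 among knockout and 0.952 to 0.964 between groups. Fh1 itself was lower in the knockout samples, with a mean of 11.58 (SD 0.04, n = 3) against 12.32 (SD 0.10, n = 3), a log2 fold change of -0.74 (SE 0.08, adjusted p = 0.000396).

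**Figure D1:**
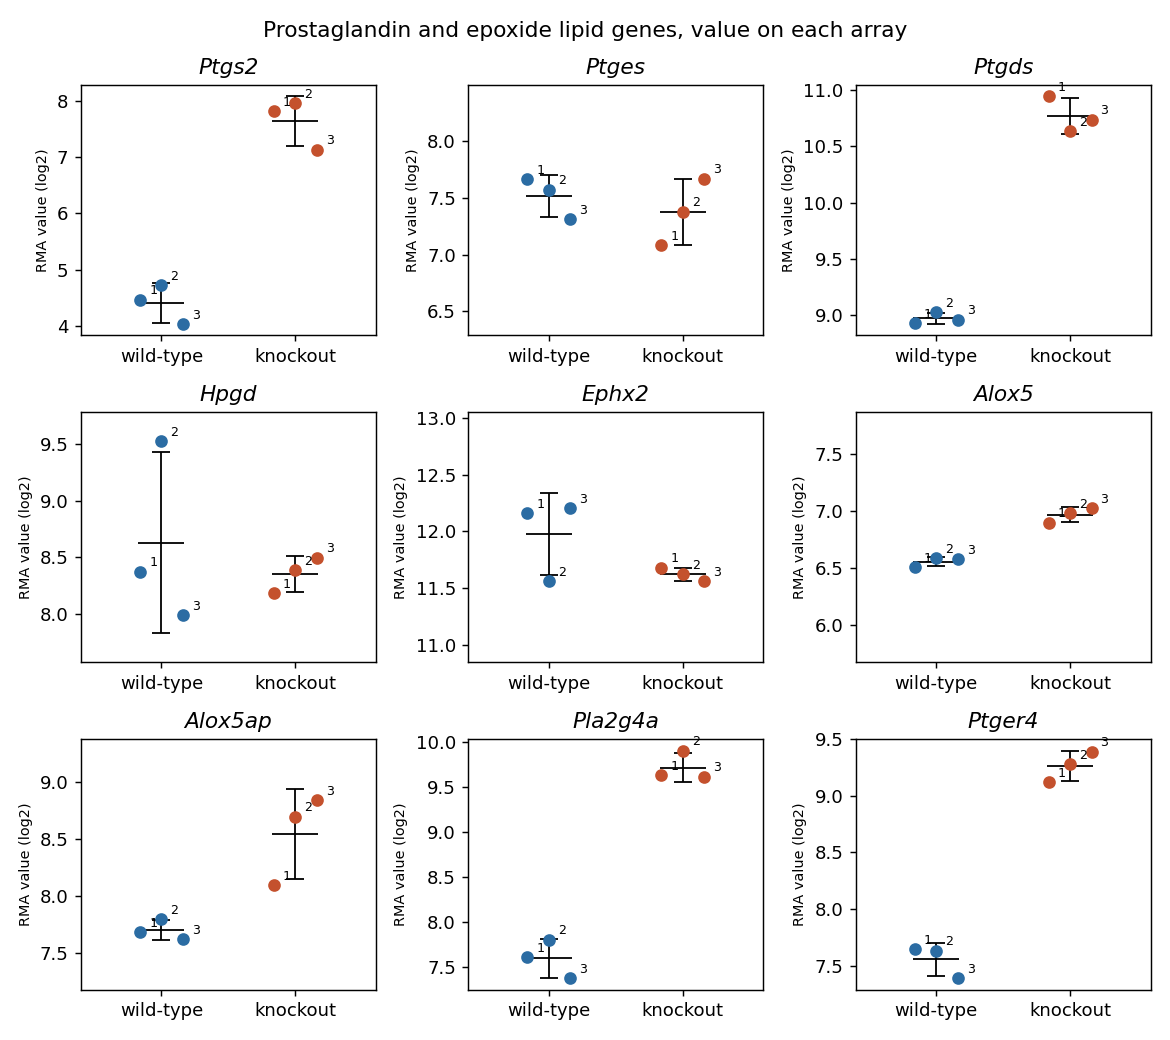
RMA values on the log2 scale for the 9 members on each array. Points are arrays with their replicate number, the long line is the group mean and the bar its SD (n = 3). Ptgs2, Ptgds, Alox5, Alox5ap, Pla2g4a and Ptger4 show no overlap between groups. In Hpgd and Ephx2 the wild-type 2 point stands away from wild-type 1 and 3.

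The starts of the 4 genes that rose over 3-fold are shown because these members moved together. The sequences are the 250 bases before the transcription start in RefSeq, build GRCm38.p6, written 5′ to 3′ on the strand of the gene. For Pla2g4a, which has 2 starts in the table, the upstream one is shown. RefSeq windows were found for 8 of the 10 genes, the exceptions being Ephx2 and Alox5ap. Capitals mark matches to 6 motifs searched on both strands, over 250 bases before and 50 after the start. These were the core of the cAMP response element (ACGTCA), the AP-1 site (TGANTCA), the E-box (CACGTG), the C/EBP site (TTGCNNAA), the NF-kB site and the core of the antioxidant response element (TGACNNNGC). The letters were chosen after the sequences had been seen, and the search was widened to the bases after the start when a first search upstream had found only the C/EBP and AP-1 matches. The last sequence, 28 bases after the start of Ptgs2, is shown because it holds overlapping matches.
Ptgs2, chr1:150099781-150100030, plus strand: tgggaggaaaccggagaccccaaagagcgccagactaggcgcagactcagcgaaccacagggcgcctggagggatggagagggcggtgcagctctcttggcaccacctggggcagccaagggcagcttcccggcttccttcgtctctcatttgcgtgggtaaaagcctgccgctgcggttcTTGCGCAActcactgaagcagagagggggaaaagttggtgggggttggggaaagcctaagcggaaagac
Ptgds, chr2:25469750-25469999, minus strand: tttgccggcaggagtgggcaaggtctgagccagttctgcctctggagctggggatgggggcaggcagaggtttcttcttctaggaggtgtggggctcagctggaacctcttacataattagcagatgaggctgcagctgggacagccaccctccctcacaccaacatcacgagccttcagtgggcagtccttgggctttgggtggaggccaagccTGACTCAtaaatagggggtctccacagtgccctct
Pla2g4a, chr1:149961291-149961540, minus strand: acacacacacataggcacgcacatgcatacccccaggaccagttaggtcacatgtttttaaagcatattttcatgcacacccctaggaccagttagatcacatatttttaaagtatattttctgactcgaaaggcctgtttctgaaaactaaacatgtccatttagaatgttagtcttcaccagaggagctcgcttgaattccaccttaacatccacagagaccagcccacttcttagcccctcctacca
Ptger4, chr15:5244188-5244437, minus strand: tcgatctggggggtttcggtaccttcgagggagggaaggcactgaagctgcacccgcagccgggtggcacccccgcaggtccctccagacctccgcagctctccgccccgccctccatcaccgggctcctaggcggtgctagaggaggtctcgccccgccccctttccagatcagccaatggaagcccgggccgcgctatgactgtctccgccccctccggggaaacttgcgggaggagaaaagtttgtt
Ptgs2 after the start, chr1:150100034-150100061, plus strand: gtcaccactACGTCACGTGgagtccgct

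The Ptgs2 window held a C/EBP match 69 to 62 bases before the start. It also held a cAMP response element core at bases 13 to 18 after the start, overlapping an E-box at bases 17 to 22. These positions hold for the RefSeq start used, and where transcription begins in these samples was not measured. The Ptgds window held an AP-1 match 35 to 29 bases before the start. Among 32851 windows of the same length, 10.8% held the C/EBP letters, 7.51% the cAMP response element core, 7.15% the E-box and 7.81% the AP-1 site. Each of these motifs was in 1 of the members' 9 windows, too few to set apart from those shares. The letters of the NF-kB site (0.411% of windows) and of the antioxidant response element core (12.4%) were in none of the members' windows. The windows of Pla2g4a and Ptger4 held no match. A match describes letters, and binding was not measured.

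Pla2g4a encodes the cytosolic phospholipase A2 that releases arachidonic acid. It read 7.61, 7.80 and 7.37 in wild-type 1, 2 and 3, and 9.63, 9.90 and 9.61 in knockout 1, 2 and 3. All knockout values lay above all wild-type values. The log2 fold change was 2.12 (SE 0.13, limma adjusted p = 3.89e-05), and 2.22 without wild-type 2 (adjusted p = 4.56e-05). It has a single probe set.

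Ptgs2 encodes cyclooxygenase-2, the inducible enzyme of prostaglandin H2 synthesis. It read 4.46, 4.72 and 4.03 in wild-type 1, 2 and 3, and 7.82, 7.96 and 7.14 in the knockout samples. The wild-type values lay below the lower quartiles of those arrays, 4.72 to 4.77. RMA gives no detection call, and the fold change rests on those dim values. The log2 fold change was 3.24 (SE 0.25, adjusted p = 7.66e-05), and 3.39 without wild-type 2. A second probe set read 4.99, 5.04 and 4.88 in wild-type and 5.86, 6.43 and 5.91 in knockout samples. Its log2 fold change, 1.10 (SE 0.15, adjusted p = 0.00102 over all probe sets), had the same direction and was smaller, and it was 1.13 without wild-type 2. The mean of both probe sets gave a log2 fold change of 2.17.

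Ptgds, the lipocalin-type prostaglandin D2 synthase, read 8.93, 9.03 and 8.96 in wild-type and 10.95, 10.63 and 10.74 in knockout samples. The wild-type values were tight (SD 0.05), and the groups stood well apart. The log2 fold change was 1.80 (SE 0.10, adjusted p = 2.54e-05), and 1.83 without wild-type 2. The second Ptgds probe set, dimmer on average, rose by 2.59 (SE 0.13, adjusted p = 1.83e-05 over all probe sets), and by 2.72 without wild-type 2. Both probe sets were called in the same direction.

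Ptges, the inducible microsomal synthase of prostaglandin E2 that often works with cyclooxygenase-2, was not called higher by any of its 3 probe sets. Its brightest probe set read 7.66, 7.57 and 7.31 in wild-type and 7.08, 7.38 and 7.67 in knockout samples. The groups overlapped, and the highest value of all was knockout 3. The log2 fold change was -0.14 (95% interval -0.51 to 0.23, adjusted p = 0.478). Leaving out wild-type 2 gave -0.11 (adjusted p = 0.63), and leaving out knockout 1 gave 0.0053. The other Ptges probe sets both lay lower in the knockout without overlap, with log2 fold changes of -0.29 (SE 0.09, adjusted p = 0.0403) and -0.41 (SE 0.11, adjusted p = 0.0186). Over all probe sets 43.9% were called. Without wild-type 2 these were -0.23 (adjusted p = 0.102) and -0.36 (adjusted p = 0.0479). The smaller change lost its call without any 1 of 5 arrays (adjusted p 0.0552 to 0.129), and the larger lost it without knockout 1 or knockout 2 (adjusted p 0.0704 and 0.0657). All 3 probe sets had negative log2 fold changes, and the interval of the brightest holds both other values.

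Hpgd encodes 15-hydroxyprostaglandin dehydrogenase, which inactivates prostaglandins. It read 8.37, 9.52 and 7.99 in wild-type 1, 2 and 3, and 8.19, 8.39 and 8.50 in knockout samples. The wild-type 2 value was the highest of the 6, and the knockout values lay within the wild-type range. The log2 fold change was -0.27 (95% interval -1.08 to 0.53, adjusted p = 0.526) and turned to 0.17 (adjusted p = 0.346) without wild-type 2. The second probe set showed the same wild-type 2 value apart, 6.26 against 5.45 and 5.35, and was not called either (log2 fold change -0.36, adjusted p = 0.207, and -0.07 without wild-type 2).

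Ptger4 encodes EP4, a prostaglandin E2 receptor that raises cAMP. It read 7.64, 7.63 and 7.39 in wild-type and 9.12, 9.28 and 9.39 in knockout samples, with no overlap. The log2 fold change was 1.71 (SE 0.11, adjusted p = 4.09e-05), and 1.75 without wild-type 2. A dim second probe set, at 3.64 ± 0.04 (SD, n = 3) in wild-type, rose by 0.85 (SE 0.09, adjusted p = 0.000244), and by 0.84 without wild-type 2.

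Ephx2 encodes soluble epoxide hydrolase, which turns the arachidonate epoxides into diols. It was read by 1 probe set, bright in every sample, at 12.16, 11.56 and 12.21 in wild-type 1, 2 and 3 and at 11.68, 11.63 and 11.56 in knockout samples. Wild-type 2 lay with the knockout samples, and wild-type 1 and 3 lay above all of them. With all arrays the log2 fold change was -0.35 (95% interval -0.75 to 0.04, adjusted p = 0.112). Without wild-type 2 it was -0.56 (SE 0.09, adjusted p = 0.00259), a 1.48-fold decrease. The result on Ephx2 therefore turns on the 1 library whose sex-linked transcripts differ, and the part of sex in it was not tested.

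**Figure D2:**
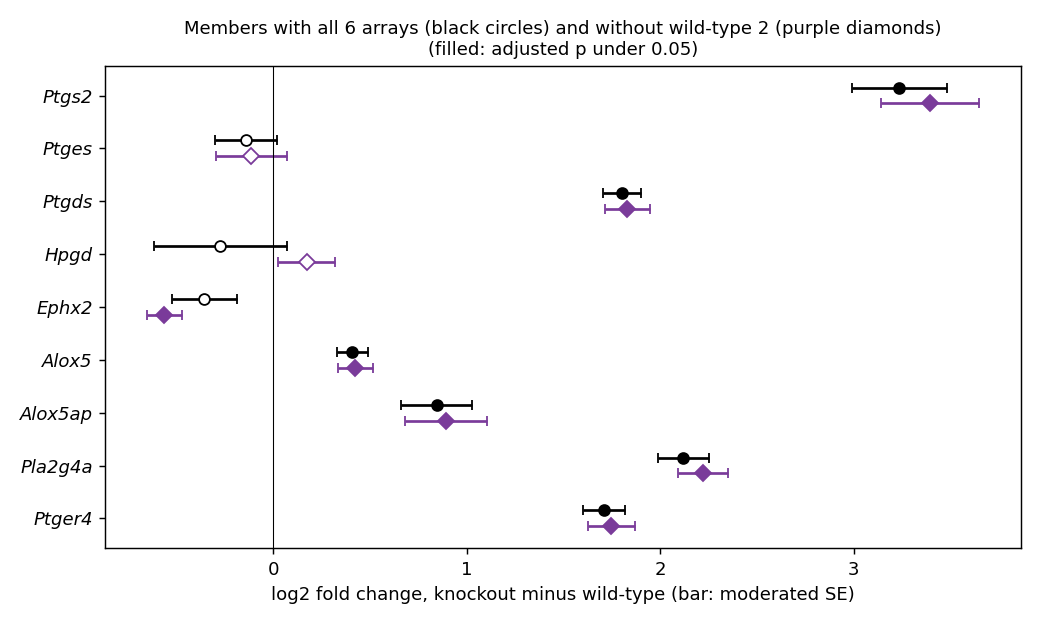
Log2 fold changes (knockout minus wild-type) of the 9 members from all 6 arrays (black circles) and without wild-type 2 (purple diamonds), with moderated SE. Filled symbols passed an adjusted p of 0.05. The 6 higher members kept their call, Ephx2 became called at -0.56, and Hpgd changed sign without passing in either fit.

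Alox5 and Alox5ap encode 5-lipoxygenase and the membrane protein that hands it arachidonic acid, and both are known mainly from myeloid cells. Alox5ap read 7.68, 7.79 and 7.62 in wild-type and 8.10, 8.70 and 8.84 in knockout samples. The groups did not overlap, and knockout 1 was the nearest to the wild-type samples. Its log2 fold change was 0.85 (SE 0.18, adjusted p = 0.00777), and 0.89 without wild-type 2. Alox5 read 6.51, 6.58 and 6.58 in wild-type and 6.90, 6.98 and 7.02 in knockout samples. Its change was small but larger than the replicate spread, at 0.41 on the log2 scale (SE 0.08, adjusted p = 0.0045), and 0.42 without wild-type 2.

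Macrophage markers rose in the same samples. Of 10 such genes 9 were higher and none lower, with a median log2 fold change of 1.91, and the log2 of their summed values was 11.98 to 12.38 in wild-type and 13.13 to 13.66 in knockout samples. Knockout 1 held the lowest knockout sums of macrophage (13.13) and fibroblast (12.51) markers. The same held for platelet, endothelial, principal cell and intercalated cell markers. It was not the lowest for neutrophil, mast cell, lymphocyte, proximal tubule or thick limb markers. Among knockout samples it was also lowest in Alox5ap, Alox5, Ptger4, Ptges and Hpgd, and highest in Ptgds (10.95) and Ephx2. Ptgs2 and Pla2g4a were lowest in knockout 3. An order over 3 samples is no test of a link. Of 9 lymphocyte markers 7 were higher and 1 lower, and of 10 interstitial fibroblast markers 6 were higher and none lower (5 without wild-type 2). The brightest gene of the lymphocyte list, Ptprc, is found on all leukocytes, macrophages included. Without Ptprc 6 of 8 lymphocyte markers were higher and 1, Cd8a, lower. That sum ran from 8.98 to 9.15 in wild-type and 9.41 to 9.96 in knockout samples, and was highest in knockout 1. With Ptprc it was 9.80 at most in wild-type and up to 11.17 in knockout samples. Summed fibroblast markers ran from 11.61 to 11.84 and 12.51 to 13.72. Neutrophil, mast cell and platelet markers, other cells that hold these enzymes, were called lower more than higher, with 3 lower and 1 higher of 8, 5 lower and 1 higher of 9, and 4 lower and 1 higher of 7. Their summed values overlapped between groups (neutrophils 8.29 to 8.57 and 8.13 to 8.30, mast cells 9.10 to 10.36 and 8.95 to 9.14, platelets 9.69 to 9.82 and 9.57 to 9.87). Over all genes 21.6% were called higher and 27.7% lower. Of the lower neutrophil, mast cell and platelet markers, all but Itga2b had a signal under the median of all genes. The log2 fold changes of these dim markers ran from -0.55 to -0.28, and the part of dim signal in their calls was not tested. RMA values have no 0, so no marker can be called absent. The part of these cells in the members' changes was not tested.

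Markers of several nephron segments were lower beside them. Of 12 proximal tubule markers 10 were lower (summed values 16.44 to 16.75 in wild-type and 15.08 to 15.25 in knockout samples), and of 7 thick limb and macula densa markers 5 were lower (15.53 to 15.67 and 14.34 to 14.64). Of 5 intercalated cell markers 3 were lower (11.38 to 11.83 and 10.50 to 10.61). Principal cell markers differed from these, with 2 of 8 lower, 6 not called, a median log2 fold change of 0.07 and overlapping sums (13.03 to 13.21 and 12.77 to 13.19). Of 8 endothelial markers, which are not of the nephron, 6 were lower and 1 higher (11.95 to 12.33 and 11.36 to 11.64). Slc12a1, the thick limb salt cotransporter that the macula densa shares, fell 2.30-fold while Ptgs2 rose. Nos1, a macula densa gene of the same list, was not called (log2 fold change -0.19, limma adjusted p = 0.11). The part of these cells and segments in the members' changes was not tested either.

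**Figure D3:**
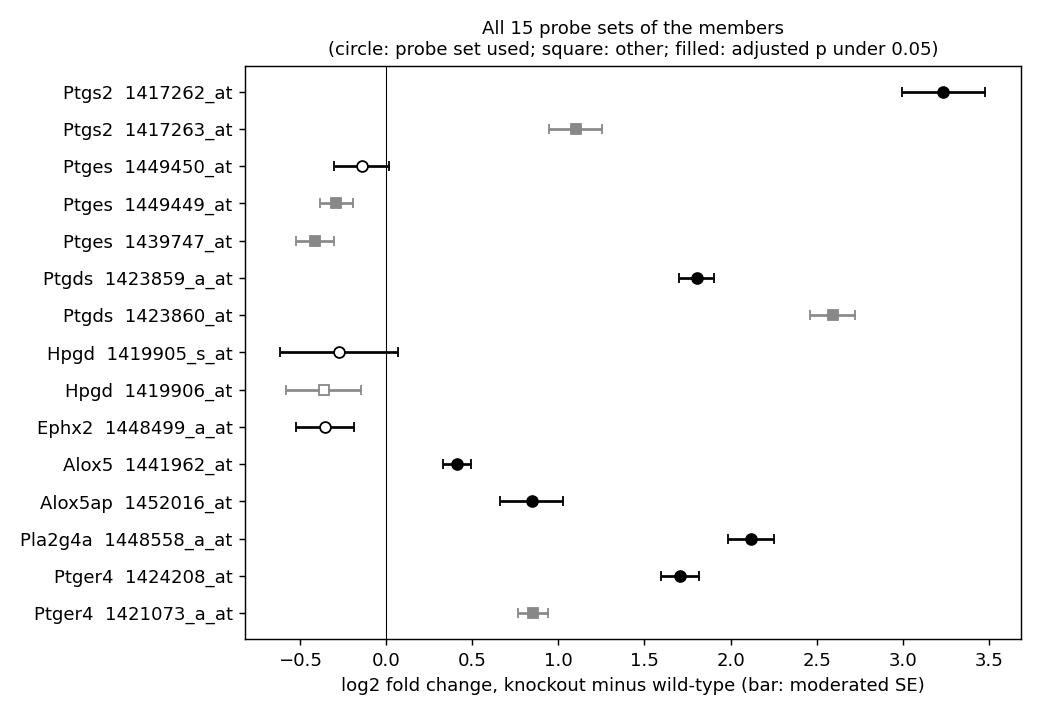
Log2 fold changes (knockout minus wild-type) with moderated SE for the 15 probe sets of the 9 members, fitted over all 45101 probe sets. Circles are the probe sets used, squares the others, and filled symbols passed an adjusted p of 0.05. The probe sets of Ptgs2, Ptgds and Ptger4 agree in direction, and 2 of the 3 Ptges probe sets were called lower, calls that were lost with some arrays left out.

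Unequal change within an array was examined for 3 pairs, as differences between the log2 values of 2 genes, by a two-sided exact permutation test whose smallest p with 3 against 3 arrays is 0.1. Pla2g4a minus Ephx2 read -4.56, -3.76 and -4.84 in wild-type and -2.06, -1.73 and -1.95 in knockout samples. This difference rose by 2.47 without overlap (exact p = 0.1, the smallest possible, adjusted p = 0.3), and by 2.79 without wild-type 2. Alox5ap minus Alox5 was 0.44 higher in the knockout (exact p = 0.2, adjusted p = 0.3) and 0.47 higher without wild-type 2, and its groups overlapped. Ptges minus Hpgd, synthesis against breakdown of prostaglandin E2, was 0.13 higher (exact p = 1, adjusted p = 1) and -0.29 without wild-type 2. None of the 3 could pass 0.05 in this design.

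The other genes of the pathway, 72 measured genes in 9 lists, comprised 13 called higher, 30 called lower and 29 not called. Without wild-type 2 there were 15 higher and 29 lower. Their median log2 fold change was -0.25, against -0.11 over all genes, of which 49.2% were called. Many lower calls with all arrays were of genes under the median signal of all genes. These were 6 of 9 epoxygenases, 5 of 6 phospholipases A2, 2 of 5 receptors and 2 of 2 lipoxygenases. They also held 1 of 2 omega-hydroxylases and 1 of 1 epoxide hydrolases, and none of the synthase, transport and leukotriene lists. With tests limited to genes at or above the median signal, 8 were higher and 11 lower. The part of dim signal in these calls was not tested.

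Receptors other than EP4 were lower or not called. Of 8 prostanoid receptors 5 fell and none rose. Ptgfr, the receptor of prostaglandin F2 alpha, fell 2.87-fold (adjusted p = 0.00203), and all of its other 4 probe sets were called lower too. Ptger3, the EP3 receptor of the thick limb and collecting duct, which lowers cAMP, fell 2.50-fold (adjusted p = 0.0047), and 2.11-fold without wild-type 2. Ptger3 read 10.39, 10.96 and 10.04 in wild-type and 9.02, 8.86 and 9.55 in knockout samples, so that EP3 and EP4 transcripts went in opposite directions without overlap in either. Ptger1, the EP1 receptor, fell 1.61-fold (adjusted p = 0.000653), but its other probe set was not called (log2 fold change 0.04).

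Terminal synthases other than the members were called in both directions. Of 6 measured, 3 were lower and 1 higher, and without wild-type 2 there were 2 of each. Tbxas1, thromboxane synthase, fell 1.75-fold (adjusted p = 0.00639) and Ptges2, a second prostaglandin E synthase, 1.42-fold (adjusted p = 0.00295). Prxl2b, which reduces prostaglandin H2 to F2 alpha, was 2.07-fold lower (adjusted p = 0.04998) and lost its call without any 1 of 5 arrays (adjusted p 0.1 to 0.125). Hpgds, the haematopoietic prostaglandin D2 synthase, was 1.24-fold higher and lost its call without any 1 of 5 arrays (adjusted p 0.0533 to 0.125).

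Genes that move or degrade prostaglandins were mixed. Abcc4, the efflux pump that exports prostaglandin E2, rose 2.01-fold (adjusted p = 0.00236). Slco2a1, the uptake transporter, was higher by 0.67 on the log2 scale, a call lost without any 1 of 5 arrays (adjusted p 0.0769 to 0.101). Ptgr2, a 15-oxoprostaglandin reductase downstream of Hpgd, fell 1.84-fold (adjusted p = 0.000163), with 3 of its 5 other probe sets called lower and 2 not called.

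Leukotriene genes past Alox5 were called in both directions. Of 7 measured, 2 were higher and 1 lower. Dpep1, the proximal tubule dipeptidase that cleaves leukotriene D4, fell 3.72-fold (adjusted p = 0.000837). Lta4h, leukotriene A4 hydrolase, was 1.20-fold higher, and of its 2 other probe sets 1 was called higher and 1 lower. The call of the brightest was lost without any 1 of 5 arrays (adjusted p 0.083 to 0.128). Cysltr1, a receptor of cysteinyl leukotrienes, was 1.57-fold higher, a call lost without any 1 of 4 arrays (adjusted p 0.0915 to 0.138). Of 6 other lipoxygenases 2 were lower, Alox12 by 1.41-fold and Alox12e by 1.31-fold. Alox12 lost its call without knockout 2 (adjusted p = 0.0532), and its other probe set was not called.

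Among 17 other phospholipases A2, 4 were higher and 6 lower. Pla2g7, the secreted platelet-activating factor hydrolase made by macrophages, had the largest change and rose 2.90-fold (adjusted p = 0.000189), from 7.66 to 8.14 in wild-type to 9.35 to 9.60 in knockout samples. Lysosomal Pla2g15 rose 1.45-fold (adjusted p = 0.0166), while its other probe set was not called. Pla2g2e was 1.41-fold higher and Pla2g1b 1.35-fold lower, calls that were lost without any 1 of 3 arrays for Pla2g2e (adjusted p 0.0612 to 0.0765) and without knockout 3 for Pla2g1b (adjusted p = 0.0502), whose 3 other probe sets were not called.

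Of 14 genes listed here as epoxygenases, the kind of enzyme that makes the substrates of Ephx2, 9 were lower and 1 higher (10 and 1 without wild-type 2). Whether each of them makes epoxides in these samples was not measured. Of these 9, 6 had a signal under the median of all genes, with log2 fold changes of -0.68 to -0.27, and only Cyp2c23, Cyp2j11 and Cyp2j5 lay above it. The arrays' lower quartiles were also lower in knockout samples, 4.62 to 4.65 against 4.72 to 4.77, and the part of this in the dim genes' calls was not tested. Cyp2c23, the main epoxygenase of rodent kidney, read 11.76, 11.51 and 10.83 in wild-type and 8.04, 7.06 and 7.45 in knockout samples, far apart and 14.4-fold lower (adjusted p = 7.94e-05). Cyp2j11 fell 3.20-fold (adjusted p = 0.000123) and the dim Cyp2c55 1.61-fold (adjusted p = 0.000967), whereas Cyp2j6 rose 1.53-fold (adjusted p = 0.00217). The other Cyp2j6 probe set was not called. Genes of the Cyp2c and Cyp2j families are near copies of each other, and a probe set may read more than 1 of them. Of 7 omega-hydroxylases, which make 20-HETE and related acids, 2 rose and 2 fell (3 of each without wild-type 2). Cyp4f16 rose 2.22-fold (adjusted p = 0.000216), with its other probe set not called, and Cyp4f14 was 1.91-fold lower, a call lost without knockout 1 (adjusted p = 0.0513).

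Cyp4a12a was 3.08-fold lower (adjusted p = 0.0471), and its call was lost without any 1 of 5 arrays (adjusted p 0.0816 to 0.135). Leaving out the remaining array, wild-type 2, gave instead a log2 fold change of -2.38 (adjusted p = 0.000171). Of the other epoxide hydrolases, the microsomal Ephx1 rose 5.90-fold (adjusted p = 5.3e-05), from 9.34 to 10.08 in wild-type to 12.29 to 12.40 in knockout samples. Ephx3 was 1.30-fold lower, a call lost without any 1 of 4 arrays (adjusted p 0.0699 to 0.0998).

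**Figure D4:**
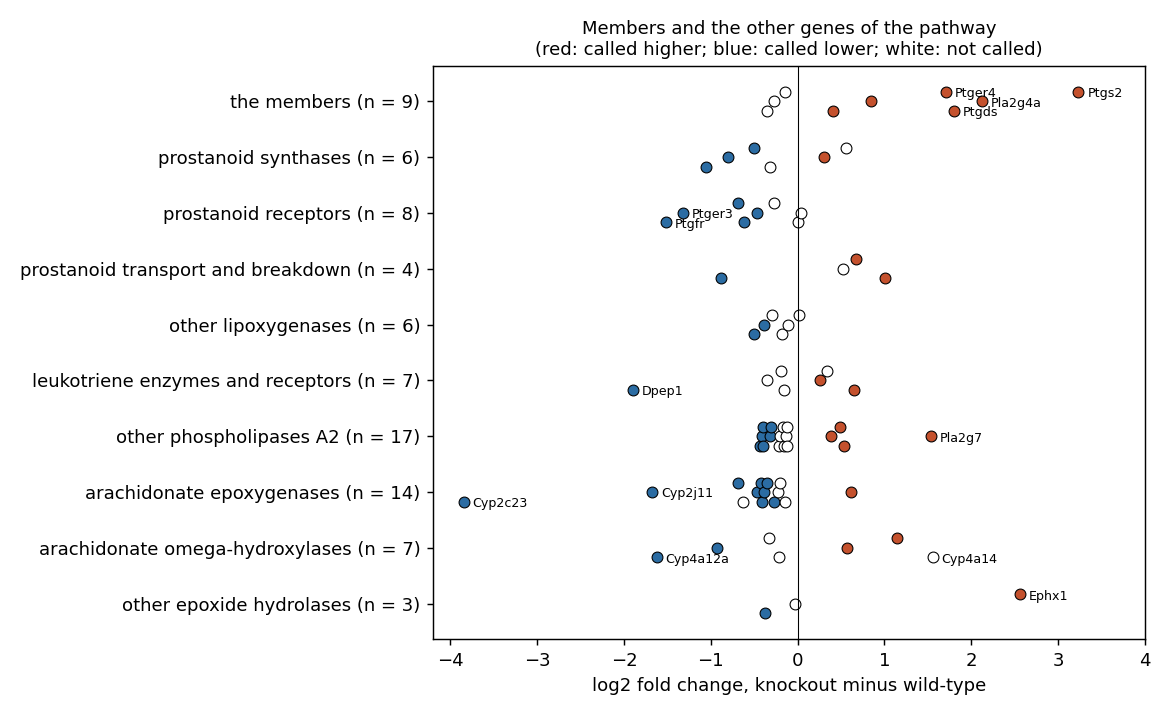
Log2 fold changes (knockout minus wild-type) of the 9 members (top row) and of 72 other genes of the pathway by list. Red points were called higher, blue lower and white not called by limma at an adjusted p of 0.05, and the genes with the largest changes are labelled. The called members all lie to the right, and the called receptors and most called epoxygenases lie to the left.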

How the data were processed

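The authors deposited 1 table of RMA values on the log2 scale for 45101 probe sets and 6 arrays. RMA is named in the submitters' processing notes without a version or chip definition. The values themselves show the log2 scale. Arrays have no counting depth, so 3 arrays per group limit the precision. Gene names came from the platform annotation, updated by Entrez identifier to RefSeq symbols of GRCm38.p6. Exactly 1 gene was listed for 34945 of them. The genotypes were tested two-sided in limma 3.58.1 (lmFit, eBayes) under R 4.3.3 without covariates, 1 probe set per gene, with Benjamini-Hochberg adjustment over 18193 genes and a threshold of 0.05. Other probe sets were adjusted over all 45101. The fit was run on simulated data with independent noise and few changed genes. Many genes were called in the real data, so that run does not measure error rates here. Members and lists were chosen with earlier results of these data known. Named genes were the 10 members and, per pathway list, the 3 called genes that changed most plus the top called gene of the opposite sign (the 2 of smallest p where fewer than 2 were called). The rule also took Fh1 and the 2 brightest genes of each marker list, which are given here by list. Figures used Python 3.11.15 and matplotlib 3.10.9. Ptgs1 was not analysed here, which left out its planned pair with Ptgs2.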

Additional observations from a re-analysis of the deposited data

How the results depend on the processing

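The 6 higher members kept their direction and call under every alternative that measured them, including each array left out in turn, with log2 fold changes of 2.17 to 3.49 for Ptgs2, 2.01 to 2.22 for Pla2g4a, 1.72 to 2.59 for Ptgds, 1.28 to 1.78 for Ptger4, 0.70 to 1.07 for Alox5ap and 0.31 to 0.45 for Alox5. Ptgs2 and Alox5 were too dim for the signal filter. With a member lower, the count was 1 with the mean of all probe sets (Ptges, -0.28), 1 with the probe set of largest SD (Ptges, -0.41) and 0 to 1 with an array left out (Ephx2 without wild-type 2). Signs turned for Hpgd without wild-type 2 (-0.59 to 0.17 with an array left out), for Ptges without knockout 1 (0.0053) and for Ptges minus Hpgd without wild-type 2 (-0.29 to 0.35). With tests limited to genes whose signal reached the median, which are fewer genes, 8 pathway genes were higher and 11 lower, with 2334 of all genes lower. At a threshold of 0.01 these were 6, 14 and 2371, and no member probe set was lower (0). With an array left out, 8 to 15 pathway genes were higher (8 without wild-type 3, knockout 1 or knockout 2) and 3160 to 4810 of all genes lower (3160 without knockout 1, 3279 without knockout 3). Of the member probe sets 2 were lower with all arrays, 1 with a trended robust prior, 1 with the replicate block and 0 to 2 with an array left out. The replicate numbers did not pair the samples (correlations of deviations -0.10, -0.13 and -0.13), and the block left 6 members higher and none lower. Centring arrays on the tested genes' median, the lymphocyte sum without Ptprc, the split of lists by signal, and the counts and left-out arrays of probe sets were added after seeing the data. The cause of these shifts was not tested.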

Other observations

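In 4 of the 72 other genes of the pathway, chosen after their values were seen, wild-type 2 lay over 1 log2 unit from both other wild-type arrays. Cbr1, a carbonyl reductase that converts prostaglandin E2 to F2 alpha, read 9.64, 12.47 and 9.66 in wild-type 1, 2 and 3 and 11.21, 11.19 and 11.05 in knockout samples. With all arrays its log2 fold change was 0.56 (adjusted p = 0.507), and without wild-type 2 the change was 2.83-fold (limma adjusted p = 5.91e-05). Cyp4a14, an omega-hydroxylase, read 7.83, 12.76 and 9.70 in wild-type and 11.66, 11.51 and 11.78 in knockout samples, and its log2 fold change went from 1.56 to 2.89 (adjusted p = 0.238 and 0.00279). Cyp2j13 read 11.52, 8.99 and 11.61 in wild-type and no more than 10.14 in knockout samples, and went from -0.63 to -1.49 (adjusted p = 0.415 and 5.91e-05). The fourth was Cyp4a12a, at 12.29, 10.30 and 12.84 in wild-type and 10.03, 10.05 and 10.48 in knockout samples. In all 4 the knockout values lay within the range of the wild-type values or reached into it, and without wild-type 2 the groups stood apart.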
